A study of Mus musculus with 12 samples.

Results

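Immunity-related GTPases (IRGs) are a family of interferon-inducible proteins that mouse cells use against bacteria and parasites living inside vacuoles. The 7 genes described here are Igtp, Irgm1, Irgm2, Iigp1, Tgtp1, Tgtp2 and Gm12250, out of 30803 genes in one deposited table and 17558 in the other. They were taken by symbol, and the family was picked because Igtp, Tgtp2 and Gm12250 were higher in Cas9 than in Ctrl libraries. The Cas9 and Ctrl levels below are therefore a description, and only the GSH and WT libraries were used for tests on the members.

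The study sequenced RNA of 4T1, a mouse mammary carcinoma cell line, in 4 groups named by genotype as WT, GSH, Ctrl and Cas9, all grown in culture in DMEM with serum. The labels do not expand GSH, name no gene as the target of Cas9, and give no treatment other than culture. Values of 10 of the 12 labelled samples were used, with 3 libraries each of WT, GSH and Cas9 and 1 of Ctrl, called Ctrl 3. The remaining pair, Ctrl 1 and 2, was not used here. Nothing in the labels tells whether replicates are separate cultures, and p-values then measure only how far these samples spread, which may be technical.

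In mouse cells, interferon-gamma binds its receptor, the receptor kinases Jak1 and Jak2 pass the signal on, and transcription factors that include Irf1 then switch on IRG genes. Irgm1, Irgm2 and Igtp (also called Irgm3) are regulators that sit on the cell's own membranes and keep the other IRG proteins inactive there. Iigp1 (Irga6), Tgtp1 and Tgtp2 (Irgb6) and Gm12250 (Irgb10) are effectors that coat the membranes around a pathogen. Guanylate-binding proteins act with them, and the ATG8 conjugation system, known from autophagy, directs both families to the pathogen's vacuole.

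Of the members, 6 lie on mouse chromosome 11. In the RefSeq gene order, Gm12250, Igtp and Irgm2 are consecutive protein-coding genes, and Tgtp2 is followed by Ifi47, an IRG that is not among the members. Promoter windows of 300 bases, from 250 before to 50 after the transcript start, were available from RefSeq (GRCm38.p6) for 6 members. The stretches below are shown because each holds interferon response motifs close to the start of a member. They lie wholly upstream of the start and run 5′ to 3′ on the gene's strand, and capitals mark matches to the motifs defined in the next paragraph.
Igtp, chr11:58199499-58199543, plus strand: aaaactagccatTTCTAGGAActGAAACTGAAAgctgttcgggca
Irgm2, chr11:58214890-58214934, plus strand: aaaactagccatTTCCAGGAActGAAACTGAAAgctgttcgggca
Tgtp1, chr11:48992302-48992346, minus strand: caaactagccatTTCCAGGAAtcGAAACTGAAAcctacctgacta
Tgtp2, chr11:49064261-49064305, minus strand: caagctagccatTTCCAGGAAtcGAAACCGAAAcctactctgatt
Irgm1, chr11:48871423-48871462, minus strand: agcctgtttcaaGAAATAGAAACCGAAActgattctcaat
Gm12250, chr11:58183740-58183818, plus strand: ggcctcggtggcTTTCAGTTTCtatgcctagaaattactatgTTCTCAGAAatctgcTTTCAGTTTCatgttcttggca

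The motifs were the core of the interferon-stimulated response element (ISRE), which is GAAA, 2 bases of any kind and GAAA, and the core of the gamma-activated site (GAS), TTCNNNGAA, searched on both strands. They were chosen after the members' sequences had been seen, so the counts describe these windows and were not tested. The ISRE core was present in 6 of 6 member windows and in 3.44% of all 32851 windows. The GAS core was present in 5 of 6 member windows, all but that of Irgm1, and in 8.3% of all windows. Both cores were present in 5 member windows and in 0.454% of all windows. In Igtp, Irgm2, Tgtp1 and Tgtp2 the GAS core came first and 2 bases separated it from the ISRE core. The Igtp and Irgm2 stretches were identical at 44 of 45 bases, while the Tgtp1 and Tgtp2 stretches were identical at 37 of 45. Irgm1 held overlapping ISRE cores and no GAS core, and Gm12250 held a GAS core between ISRE cores on the opposite strand. A match is a string of letters and does not show that a factor binds there.

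**Figure D1:**
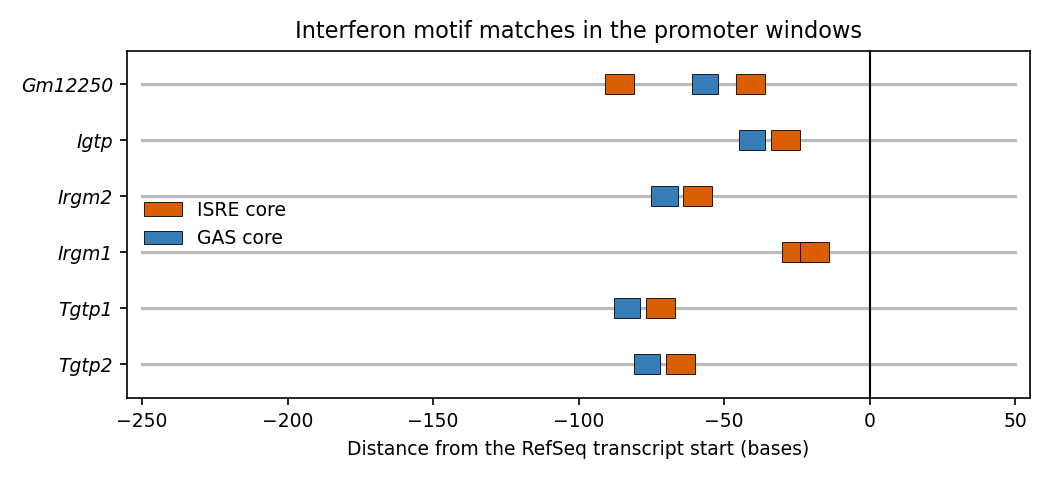
Matches to the ISRE core (orange) and the GAS core (blue) in the promoter windows of 6 members, by distance in bases from the RefSeq transcript start (vertical line). All matches lie between 91 and 15 bases before the start, and 5 of the 6 windows hold both cores.

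The WT and GSH libraries held 18531444 to 30168737 mapped reads and the Ctrl and Cas9 libraries 33152215 to 39201544. These totals were worked out from the steps of the deposited values and annotated gene lengths (GENCODE M21). Values are FPKM, reads per kilobase of gene scaled to the library's mapped reads. The 2 tables were made separately and used different gene lengths, so levels set across them are only rough. Among the WT and GSH libraries, WT 3, GSH 2 and GSH 3 stood apart in 10 secretory genes, whose summed FPKM was 172 to 301 there and 0.960 to 10.8 in the other 3. That list was drawn up for these libraries with earlier results known, so the separation is a description. The Ctrl and Cas9 libraries went against the label of a cultured carcinoma line in the markers of several other cell types. The 5 general leukocyte markers summed to 269.9 to 459 FPKM in them, against 0.809 to 1.88 in the WT and GSH libraries, and 9 macrophage markers summed to 2101 to 5316 against 20.5 to 30.6. Fibroblast markers summed to 478 to 1590 FPKM in the Ctrl and Cas9 libraries, against 3.32 to 29.2 in the WT and GSH libraries. Endothelial markers summed to 47.1 to 106 FPKM against 0.248 to 0.478. The 7 epithelial markers summed to 1777 to 2961 FPKM in the Ctrl and Cas9 libraries and to 1590 to 1764 in the others. Less RNA of a kind per cell and fewer cells of a type cannot be told apart in such bulk samples.

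Each of the 7 members was detected in each Ctrl and Cas9 library and was higher in all 3 Cas9 libraries than in Ctrl 3. All 3 Cas9 libraries also lay above Ctrl 3 for 20.1% and below it for 22.5% of the 11407 genes with a mean of 1 FPKM or more, and nothing is read from the members' count, since this contrast chose them. Their summed level was 249.5 FPKM in Ctrl 3 and 434, 413 and 513 FPKM in Cas9 1, 2 and 3. Across all genes the moderated test of limma called 0 genes between Cas9 and Ctrl at an adjusted p of 0.05. It found 210 genes at an unadjusted p under 0.05, and voom on recovered reads also called 0 genes. With 1 Ctrl library the spread of Ctrl is taken to be that of Cas9.

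Igtp, the regulator found at the endoplasmic reticulum, had the highest FPKM of the family in the Ctrl and Cas9 libraries. It stood at 65.4 FPKM in Ctrl 3 and at 117, 116 and 141 FPKM in Cas9 1, 2 and 3. The ratio of the Cas9 libraries to the single Ctrl library was 1.91 ± 0.212 (mean ± SD, n = 3). Irgm1, a regulator needed for normal autophagy and blood cell numbers in mice, stood at 57.8 FPKM in Ctrl 3 and at 87.7, 86.0 and 99.5 FPKM in the Cas9 libraries. This was the smallest ratio among the members, 1.58 ± 0.127. Irgm2, a regulator at the Golgi, stood at 28.6 FPKM in Ctrl 3 and at 49.0, 45.4 and 56.2 FPKM in Cas9, a ratio of 1.75 ± 0.193. For the regulators the Cas9 values did not reach down to that of Ctrl 3, and Cas9 3 was the highest library.

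Among the effectors, Iigp1, which lies on mouse chromosome 18, stood at 42.7 FPKM in Ctrl 3 and at 78.3, 71.4 and 99.8 FPKM in Cas9 1, 2 and 3, a ratio of 1.95 ± 0.347. Gm12250, whose product is known for attacking bacterial membranes, was the lowest member in FPKM and had the largest ratio. Its level was 12.1 FPKM in Ctrl 3 and 24.9, 24.9 and 32.0 FPKM in the Cas9 libraries, a ratio of 2.25 ± 0.339. Tgtp1 stood at 17.1 FPKM in Ctrl 3 and at 30.3, 27.1 and 40.9 FPKM in Cas9, a ratio of 1.91 ± 0.421. Tgtp2, in the same gene cluster, stood at 25.8 FPKM in Ctrl 3 and at 46.8, 42.2 and 44.1 FPKM in Cas9, a ratio of 1.72 ± 0.0911. Cas9 3 was the highest library for Iigp1, Gm12250 and Tgtp1, as it was for the regulators, but not for Tgtp2, which was highest in Cas9 1.

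**Figure D2:**
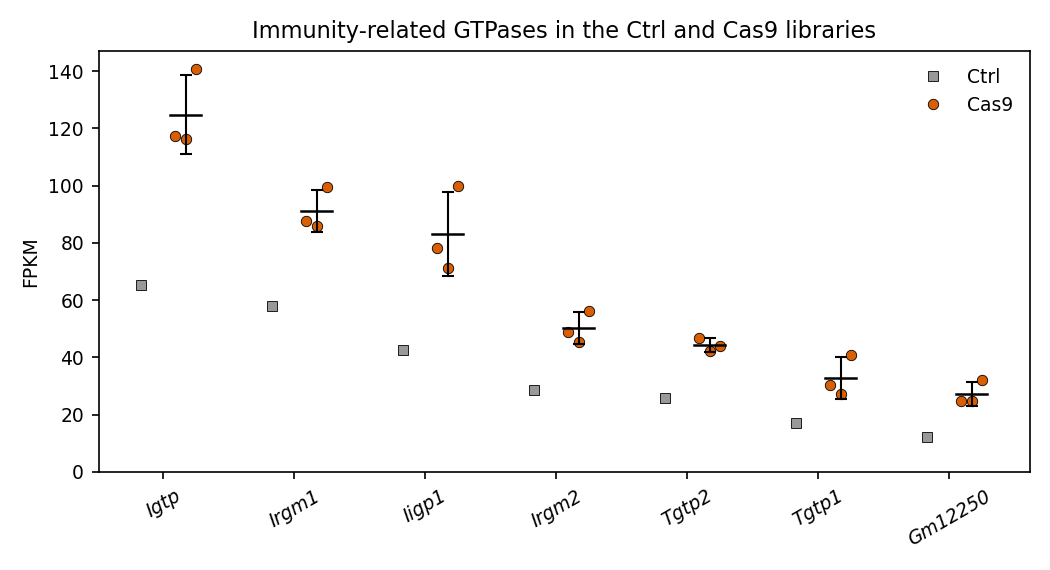
FPKM of the 7 members in Ctrl 3 (grey squares) and in Cas9 1, 2 and 3 (orange circles, left to right); lines and bars are the Cas9 mean ± SD. Igtp runs from 65.4 FPKM in Ctrl 3 to 141 in Cas9 3, and no Cas9 point lies as low as the Ctrl point of the same gene.

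Tgtp1 and Tgtp2 are near-identical copies, and their separate values are uncertain. Their longest annotated transcripts matched at 99.8% of 2810 aligned bases, and 83.2% of the 31-base words of Tgtp1 also occurred in Tgtp2. Summed over both, the level was 42.9 FPKM in Ctrl 3 and 77.1, 69.3 and 85.0 FPKM in Cas9, or 1.80, 1.62 and 1.98 times Ctrl 3. Tgtp1 made up 39.9% of the sum in Ctrl 3 and 39.3% and 39.2% in Cas9 1 and 2. In Cas9 3 it made up 48.1%, so that the library with the highest sum also divided it differently between the copies.

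The order of the members by FPKM was Igtp, Irgm1, Iigp1, Irgm2, Tgtp2, Tgtp1 and Gm12250 in Ctrl 3, Cas9 1 and Cas9 2. In Cas9 3, Iigp1 stood above Irgm1. The Cas9 ranges of 3 neighbours in that order overlapped, Irgm1 with Iigp1, Irgm2 with Tgtp2, and Tgtp1 with Gm12250. Each member kept a similar share of the family's summed FPKM in the 4 libraries, for example 26.2% to 28.1% for Igtp and 11.0% to 11.5% for Irgm2. Irgm1 made up 19.4% to 23.2% and Gm12250 4.86% to 6.24%.

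**Figure D3:**
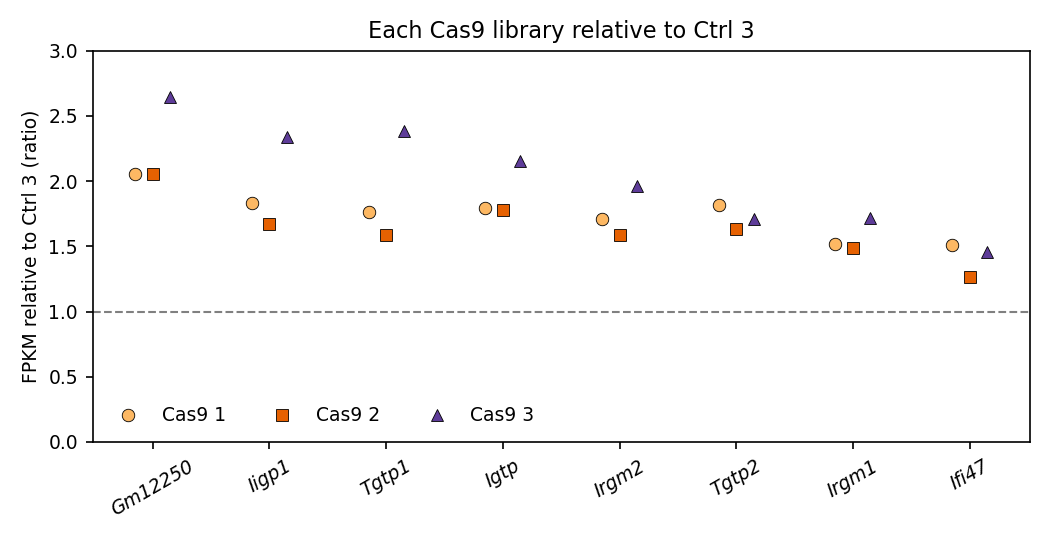
FPKM of each Cas9 library divided by that of Ctrl 3 for the 7 members and Ifi47, ordered by mean ratio; the dashed line marks a ratio of 1. All points lie above 1, from 1.26 for Ifi47 in Cas9 2 to 2.64 for Gm12250 in Cas9 3.

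Other IRG family genes did not all share these levels. Of 7 that had a mean of 1 FPKM or more, 2 had all 3 Cas9 libraries above Ctrl 3 and 1 had all 3 below, against 20.1% and 22.5% of all genes. The median difference was 0.22 on the log2(FPKM + 1) scale, against 0.88 for the members and -0.01 for all genes tested. Ifi47 stood at 52.7 FPKM in Ctrl 3 and at 79.6, 66.6 and 76.6 FPKM in Cas9, and Gm4951 at 8.80 and at 13.0, 15.8 and 17.0 FPKM. Irgq, a family member that is not known as interferon-inducible, stood at 5.97 FPKM in Ctrl 3 and at 5.42, 5.75 and 4.75 FPKM in Cas9. The difference between the members and this list was not tested, since the members were chosen on this contrast.

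In the same libraries the ligand Ifng was low and was not tested, at 0.443 FPKM in Ctrl 3 and at 0.624, 0.324 and 0.191 FPKM in Cas9 1, 2 and 3. The receptor chains overlapped between groups. Ifngr1 stood at 39.6 FPKM in Ctrl 3 and at 43.6, 42.1 and 28.7 in Cas9, and Ifngr2 at 48.5 and at 51.2, 48.5 and 42.1. The kinases overlapped as well, with Jak1 at 42.3 FPKM in Ctrl 3 and 39.2, 43.4 and 37.2 in Cas9, and Jak2 at 45.5 and 39.5, 42.3 and 51.8. Irf1, a transcription factor, stood at 74.6 FPKM in Ctrl 3 and at 86.1, 84.8 and 87.7 in Cas9. Socs1, an inhibitor of Jak kinases, stood at 14.3 FPKM in Ctrl 3 and at 19.4, 20.3 and 24.2 in Cas9. Of the 12 interferon-gamma signalling genes tested, 4 lay above Ctrl 3 in all Cas9 libraries and 0 below, against 20.1% and 22.5% of all genes.

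Among genes that interferons induce, all 3 Cas9 libraries lay above Ctrl 3 for 14 of 17 interferon-gamma-induced genes, 14 of 14 type I interferon-induced genes and 9 of 10 guanylate-binding proteins. Their median differences were 0.43, 0.67 and 0.71 on the log2(FPKM + 1) scale. None of these genes passed the test, and the 20.1% of all genes stands beside these counts as background. Psmb9, a subunit of the immunoproteasome, stood at 95.9 FPKM in Ctrl 3 and at 126, 137 and 136 in Cas9, and Ubd, a ubiquitin-like modifier, at 4.68 and at 19.6, 9.21 and 17.2. Rtp4 stood at 14.4 FPKM in Ctrl 3 and at 22.4, 25.5 and 27.1 in Cas9, and Oas3, a sensor of double-stranded RNA, at 4.11 and at 7.22, 9.11 and 8.62. Gbp10 stood at 7.65 FPKM in Ctrl 3 and at 13.9, 12.7 and 13.1 in Cas9, and Gbp9 at 19.2 and at 29.75, 35.02 and 37.5. In type I and III interferon signalling, 4 of 10 genes lay above Ctrl 3 in all Cas9 libraries and 2 below, against 20.1% and 22.5% of all genes. The former included Usp18, an inhibitor of the type I receptor, at 15.8 FPKM in Ctrl 3 and 25.9, 30.6 and 27.8 in Cas9, and Stat2, at 20.5 and 30.9, 30.4 and 27.9.

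Genes that act beside the IRG proteins at vacuoles or in the inflammasome went both ways. Of 12 genes of the ATG8 conjugation system, 4 lay above Ctrl 3 in all Cas9 libraries and 3 below, with a median of 0.02 on the log2(FPKM + 1) scale. Of 9 ubiquitin factors and inflammasome genes, 3 lay above and 2 below, with a median of -0.02. Over all genes 20.1% lay above and 22.5% below, so the counts below Ctrl 3 are near the background. Casp1, the inflammasome protease, stood at 33.5 FPKM in Ctrl 3 and at 43.4, 45.8 and 42.2 in Cas9, while Nlrp3, a sensor, stood at 4.45 and at 3.50, 3.03 and 2.34.

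Markers of several cell types differed between Ctrl 3 and the Cas9 libraries. Summed over the 8 T cell markers in the table, the level was 14.4 FPKM in Ctrl 3 and 30.4, 34.7 and 20.5 FPKM in Cas9 1, 2 and 3. Of the 7 T cell markers tested, 7 had all Cas9 libraries above Ctrl 3, against 20.1% of all genes. The remaining T cell marker, Cd4, had a mean under 1 FPKM and went the other way. It stood at 1.01 FPKM in Ctrl 3 and at 0.903, 0.904 and 0.166 in Cas9. Natural killer cell markers summed to 21.1 FPKM in Ctrl 3 and to 48.7, 25.4 and 42.1 in Cas9, with 3 of 6 tested above Ctrl 3 in all Cas9 libraries. Those 3 were Nkg7, Gzma and Gzmb, which T cells also express, while Ncr1, a defining natural killer cell gene, stood at 0.693 FPKM in Ctrl 3 and at 0.247, 0.492 and 0.471 in Cas9. Neutrophil markers summed to 154 FPKM in Ctrl 3 and to 245, 192 and 716 in Cas9. Macrophage markers summed to 4765 FPKM in Ctrl 3 and to 5316, 4026 and 2101 in Cas9. Of 9 tested, 0 lay above Ctrl 3 in all Cas9 libraries and 4 below, against 20.1% and 22.5% of all genes. Their median was -0.41 on the log2(FPKM + 1) scale. The library with the highest level of 6 members, Cas9 3, had the lowest macrophage and leukocyte sums and the highest neutrophil sum. It also had the highest epithelial sum, 2961 FPKM against 2491 in Ctrl 3 and 1777 and 2474 in Cas9 1 and 2. Of the 7 epithelial markers, 0 lay above Ctrl 3 in all Cas9 libraries and 1 below, against 20.1% and 22.5% of all genes. Fibroblast markers summed to 1042 FPKM in Ctrl 3 and to 502, 1590 and 478 in Cas9. Of 3 adipocyte markers tested, 2 lay below Ctrl 3 in all Cas9 libraries, against 22.5% of all genes. The median of this list was -0.95 on the log2(FPKM + 1) scale. The part of these cell types in the members' levels was not tested.

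**Figure D4:**
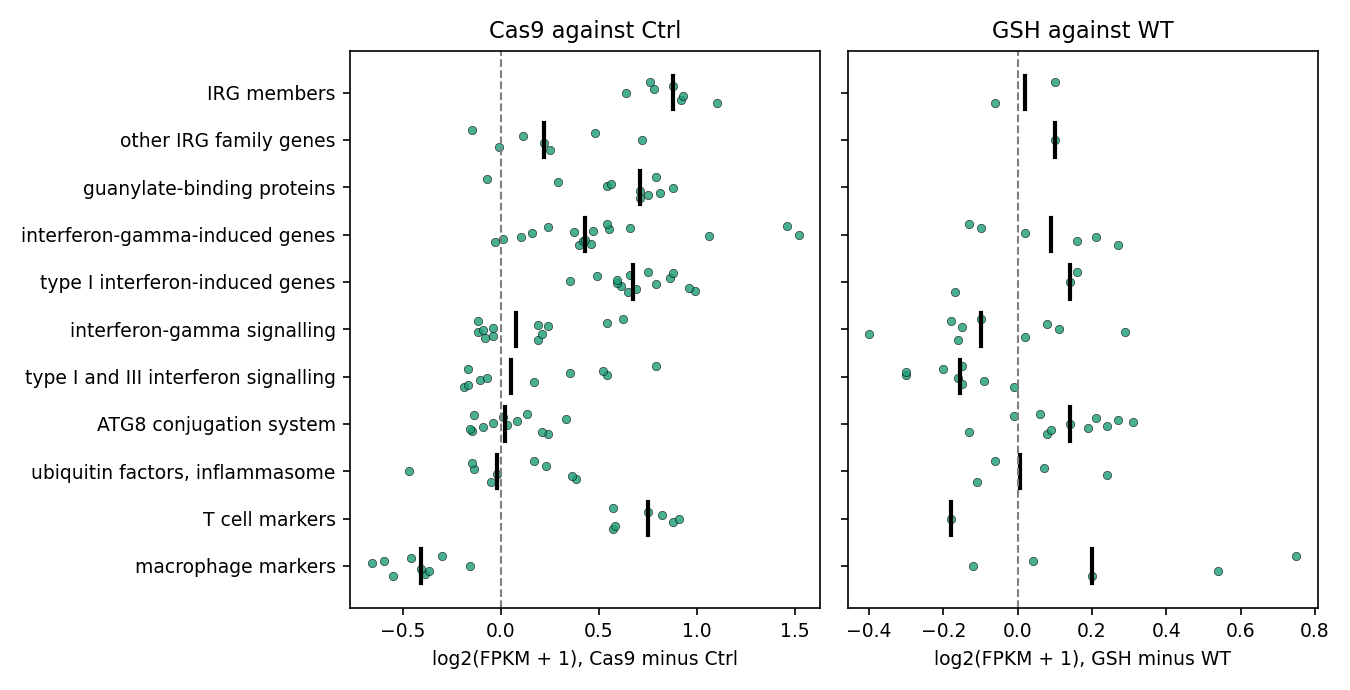
Difference on the log2(FPKM + 1) scale of each gene with a mean of 1 FPKM or more, Cas9 minus Ctrl on the left and GSH minus WT on the right, whose axes differ in range; points are genes and black lines are medians of each list. The member median is 0.88 on the left, and 2 members appear on the right.

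The WT and GSH libraries held the members at low levels, and no member passed the test between them. Summed over the 7 genes the level was 3.45, 3.11 and 3.70 FPKM in WT 1, 2 and 3 and 3.64, 3.40 and 3.53 FPKM in GSH 1, 2 and 3. Only Igtp and Irgm1 had a mean of 1 FPKM or more and entered the test, and 0 of these 2 was called, against 37.0% of the 12283 genes tested (20.6% higher and 16.4% lower in GSH). Neither had an unadjusted p under 0.05, and voom on recovered reads called 0 members. The GSH and WT libraries took no part in choosing the family.

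Igtp stood at 1.40, 1.24 and 1.57 FPKM in WT 1, 2 and 3, from 62, 51 and 68 reads, and at 1.33, 1.34 and 1.23 FPKM in GSH 1, 2 and 3, from 81, 51 and 46 reads. The groups overlapped. The difference, GSH minus WT, was -0.06 with a standard error of 0.07 on the log2(FPKM + 1) scale, with a 95% interval of -0.23 to 0.11 and an adjusted p of 0.518 by limma. Irgm1 stood at 1.31, 1.22 and 1.12 FPKM in WT, from 167, 144 and 139 reads, and at 1.41, 1.248 and 1.486 FPKM in GSH, from 247, 137 and 160 reads. The lowest GSH library lay within the WT range and the other two above it. Its difference was 0.10 with a standard error of 0.07, a 95% interval of -0.06 to 0.27 and an adjusted p of 0.281 by limma. Within WT 1, WT 2 and GSH 1 the Igtp difference was 0.006 and that of Irgm1 0.089, and within WT 3, GSH 2 and GSH 3 they were -0.171 and 0.16.

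The other 5 members lay under a mean of 1 FPKM. Irgm2 stood at 0.259, 0.294 and 0.291 FPKM in WT, from 21, 22 and 23 reads, and at 0.332, 0.402 and 0.307 FPKM in GSH, from 37, 28 and 21 reads. It was the only member whose groups did not overlap, with all 3 GSH libraries above WT as for 29.0% of all genes tested; 52.5% did not overlap in one direction or the other. Without the filter on low values its adjusted p by limma was 0.448, with a difference of 0.07 and a 95% interval of -0.04 to 0.18. Gm12250 stood at 0.465, 0.193 and 0.622 FPKM in WT and at 0.546, 0.374 and 0.212 FPKM in GSH, from 5 to 21 reads. Its spread between libraries of 1 group was larger than the difference between the groups.

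Iigp1, Tgtp1 and Tgtp2 were at the limit of detection in WT and GSH. Iigp1 had 1, 2 and 5 reads in WT and 2, 2 and 11 in GSH. Tgtp1 had 1, 5 and 2 reads in WT and 0, 0 and 5 in GSH, and Tgtp2 had 0, 4 and 2 in WT and 1, 1 and 6 in GSH. A count of 0 allows up to 3 reads, which for Tgtp1 is 0.0310 FPKM in GSH 1 and 0.0496 FPKM in GSH 2, and for Tgtp2 is 0.0465 FPKM in WT 1. These floors cover counting error only. GSH 3 had the most reads of Iigp1 and Tgtp2, and it also had the highest leukocyte sum, 1.88 FPKM, and the highest macrophage sum, 30.6 FPKM, of the 6 libraries.

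**Figure D5:**
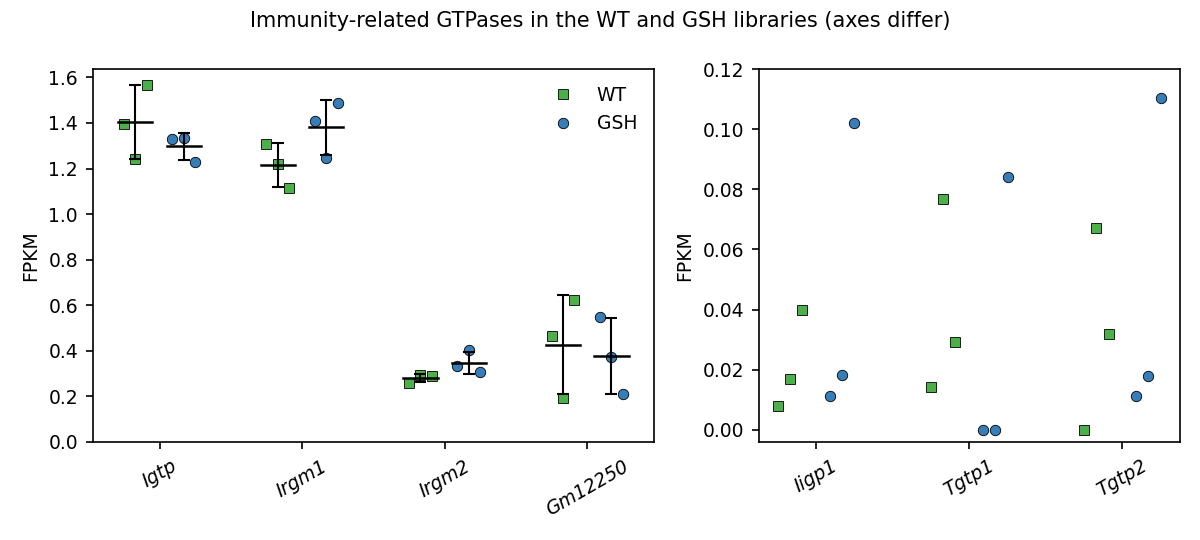
FPKM of the 7 members in WT (green squares) and GSH (blue circles) libraries 1, 2 and 3, left to right; lines and bars on the left are means ± SD, and the right panel, with its own axis, shows single libraries only. Igtp and Irgm1 lie between 1.12 and 1.57 FPKM and overlap between the groups, and Irgm2 lies higher in each GSH library than in any WT library.

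The make-up of the family differed between the 2 tables. Igtp and Irgm1 led in all 6 WT and GSH libraries, with Igtp at 34.8% to 42.4% and Irgm1 at 30.2% to 42.1% of the family's summed FPKM, while Iigp1 made up 0.227% to 2.89%. In the Ctrl and Cas9 libraries Iigp1 made up 17.1% to 19.4%. By FPKM, Igtp stood above Irgm1 in the 3 WT libraries and in GSH 2, and below it in GSH 1 and GSH 3. That order rests on the gene lengths used, since by reads Irgm1 led in each of the 6 libraries, at 54.3% to 63.5% of the family's reads against 18.1% to 26.6% for Igtp. The effectors Iigp1, Tgtp1 and Tgtp2 took the last 3 places in each WT and GSH library. Across the tables, gene lengths, library processing and cell make-up cannot be told apart from genotype, so no test was made.

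Interferon signalling genes were compared between GSH and WT as context for the members. Of 9 interferon-gamma signalling genes tested, 1 rose and 3 fell in GSH by limma, where 20.6% of all genes rose and 16.4% fell. Calls in these lists were not made within either set of 3 libraries, as given below. Jak1 rose from 9.75, 9.69 and 9.79 FPKM in WT to 11.97, 12.43 and 11.95 FPKM in GSH, by 0.29 ± 0.03 (SE) on the log2(FPKM + 1) scale (adjusted p = 0.00188). Irf1 fell from 9.31, 9.73 and 9.54 FPKM to 7.42, 7.08 and 6.44 FPKM, a difference of -0.40 ± 0.05 (adjusted p = 0.00297). The groups did not overlap for either gene. Ifngr1 fell by 0.16 (adjusted p = 0.016) and Nlrc5, an activator of MHC class I genes, by 0.15 (adjusted p = 0.0426). The Ifngr1 call was lost without WT 1 (adjusted p = 0.0543), and that of Nlrc5 was lost with each of the 6 libraries left out (adjusted p from 0.0502 to 0.123, by limma). Ifngr2 differed by 0.02 (adjusted p = 0.858), Jak2 by 0.11 (adjusted p = 0.109) and Socs1 by -0.18 (adjusted p = 0.0931). Ifng was not analysed here in the WT and GSH libraries.

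In type I and III interferon signalling 0 of 8 genes rose and 5 fell in GSH, against 20.6% and 16.4% of all genes. Irf9 fell by 0.30 (adjusted p = 0.00557 by limma), Irf3 by 0.30 and Stat2 by 0.20 (both 0.0127), and Ifnar2, a chain of the type I receptor, by 0.15 (0.0272). The Ifnar2 call was lost without WT 1, WT 2, WT 3, GSH 1 or GSH 3 (adjusted p from 0.0512 to 0.0795). Among genes that interferons induce, few reached the filter. Of 6 interferon-gamma-induced genes tested, Psmb10 rose by 0.21 (adjusted p = 0.0194) and Tap2, a peptide transporter subunit, fell by 0.13 (0.0241). The Psmb10 call was lost without WT 2, WT 3 or GSH 2 (adjusted p from 0.0516 to 0.0595), and the Tap2 call without any 1 library but GSH 3 (0.0587 to 0.0723). Of 3 type I interferon-induced genes 0 passed, the smallest being Ifit2 with a difference of 0.14 (adjusted p = 0.0543), followed by Bst2 with -0.17 (adjusted p = 0.0605). None of the 11 guanylate-binding proteins reached a mean of 1 FPKM.

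Of 11 ATG8 conjugation genes tested, 5 rose and 1 fell in GSH, against 20.6% and 16.4% of all genes. Gabarap, an ATG8 protein, rose from 28.6, 27.2 and 29.4 FPKM in WT to 35.5, 36.2 and 34.4 FPKM in GSH, by 0.31 ± 0.04 (SE, adjusted p = 0.00254 by limma). Its paralogue Gabarapl1 rose by 0.27 (adjusted p = 0.00499), the protease gene Atg4b by 0.19 (0.0131) and Atg5 by 0.24 (0.0134). Among 4 ubiquitin factors and inflammasome genes tested, Sqstm1, an autophagy receptor, rose by 0.24 (adjusted p = 0.00223), from 83.7, 85.9 and 86.7 FPKM to 102, 102 and 99.3 FPKM. Over all genes the median difference was 0.02. Within WT 1, WT 2 and GSH 1, and within WT 3, GSH 2 and GSH 3, 0 of the 18 called genes of these lists passed the test. Each of these sets has 1 library in one group and 1 residual degree of freedom, and few genes of any kind passed in them (4 and 0). Irf1, for example, differed by -0.32 in the first set (adjusted p = 0.0825) and by -0.44 in the second (adjusted p = 0.0915, both by limma).

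Over the 10 libraries, each centred within its table, the genes most like the mean of the members among 9530 with a mean of 1 FPKM or more in both tables were Snx10, Mal2, Crb3, Zfp655 and 1190007I07Rik. Their Pearson correlations were 0.984, 0.963, 0.96, 0.949 and 0.946. Snx10 stood at 12.3 FPKM in Ctrl 3 and at 17.0, 16.1 and 17.9 FPKM in Cas9. Guanylate-binding proteins were not eligible, being under 1 FPKM in WT and GSH. The correlations describe 10 libraries that share 1 Ctrl library. In WT and GSH the members' summed level ran only from 3.11 to 3.70 FPKM, so the correlations rest mainly on Ctrl 3 against Cas9. That contrast chose the family, and these genes are the highest of 9530, so nothing is read from the size of the correlations.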

How the data were processed

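The authors deposited 1 table per library with no unit stated in the labels or headers. The deposited values were taken as FPKM because the low values of each gene are multiples of 1 step per library, as reads per gene length would be. Values within 0.1 of a whole read by the ratios of a gene's values between libraries (0.15 by GENCODE M21 length, or closer at low counts) were called whole, as 100% of the WT and GSH genes and 99.9% of the Ctrl and Cas9 genes above 0 were. Multipliers up to 60000 were tried for the ratios, so genes with many reads could hardly miss. Bowtie2 2.2.3, HISAT2 2, HTSeq 0.6.0 and the build mm8 are listed, with no role, in the submitters' processing notes. Symbols were found for 30190 of the 30803 Ensembl identifiers. RefSeq and GENCODE M21 (GRCm38) served for names, gene order, transcript identity and promoter windows. GENCODE M21 gene lengths also set the library totals, and gave whole reads for 29696 WT and GSH genes. The Ctrl and Cas9 totals rest on 318 genes whose M21 length gave a common total.

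Each table was fitted on its own with limma 3.58.1 (R 4.3.3), with a trend, on log2(FPKM + 1) for genes with a mean of 1 FPKM or more, without other scaling, with Benjamini-Hochberg adjustment over all genes tested and a threshold of 0.05. Differences on this scale understate changes of low genes. The Cas9 and Ctrl fit had 2 residual degrees of freedom. Alternatives were other pseudocounts (0.1 and 0.5), no filter or a mean of 5, other scalings, voom on recovered reads (scaled to their sum; the planned TMM scaling was not run), a replicate block, a term for the library set, and leaving out libraries. The fits were run on simulated data whose spread between libraries was a fixed setting, not estimated from these libraries. That run therefore does not tell how many real differences the fits would find here.

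The members and gene lists were chosen with earlier results of these data known. Named genes were all members, the genes passing per list (at most the 4 with the smallest p, or the 2 with the smallest p where none passed), Ifng, Ifngr1, Ifngr2, Jak1, Jak2, Irf1 and Socs1, and the 5 genes most like the members; 1 further gene under this rule is not reported here. Other IRG genes and cell type markers named for description were chosen after their values were seen.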

Additional observations from a re-analysis of the deposited data

How the results depend on the processing

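No result for a member in GSH against WT changed its side of the threshold under any alternative run, and 0 members were called in each. The Igtp difference reversed to 0.006 within WT 1, WT 2 and GSH 1 (a set chosen after seeing the data). The 5 members under the filter were recomputed only without it. The genes called between GSH and WT numbered 4547, and 2998 to 3671 when each library was left out in turn, with 2998 without WT 1. Within WT 3, GSH 2 and GSH 3 there were 0 and within WT 1, WT 2 and GSH 1 there were 4, with 1 library in one group of each. The pathway lists held 18 called genes, 11 without the filter on low values, 12 to 15 with a library left out, and 0 in either set of 3 libraries. Over all 12283 genes tested 37.0% were called, so nothing is read from the count of 18. Of the other IRG genes 1 was tested, and the number tested in each remaining pathway list is given above. Voom on recovered reads called 5170 genes. Deviations from the group mean in same-numbered WT and GSH libraries correlated at 0.48, -0.11 and 0.21, and in differently numbered ones at -0.49 to 0.39. With 3 libraries per group these values cannot tell whether the numbers pair the samples. A replicate block gave 3867 called genes, 14 in the pathway lists and 0 members. The block lost the calls of Nlrc5 (adjusted p = 0.0857), Tap2 (0.0514), Il10rb (0.0734) and Atg16l1 (0.0837, limma). No paired analysis was possible for Cas9 against Ctrl because they share 1 replicate number. There, 0 genes were called under each setting run, and the member differences lay between 0.579 and 1.165 on the log2 scale. Ctrl 3 could not be left out. Depth limits Iigp1, Tgtp1 and Tgtp2 in WT and GSH, which had at most 11 reads.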

Other observations

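WT 2 held the highest level of 8 of 16 type I interferon-induced genes among the 6 WT and GSH libraries, and the lowest of Isg15 and of Gm12250. WT 1 held the lowest level of 8 of the same 16 genes. No share over all genes is given here for these counts. Mx1 was 0.312 FPKM in WT 2 and 0.0 to 0.0998 FPKM in the other 5 libraries. Ifit1 was 0.445 FPKM in WT 2 and 0.0343 to 0.163 FPKM in the others, and Irf7 was 0.887 FPKM in WT 2 and 0.217 to 0.5002 FPKM in the others. Igtp in WT 2, at 1.24 FPKM, was the lowest of the 3 WT values. These genes were named after their values were seen, and no test was made.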
